A study of Mus musculus with 23 samples.

Results

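Primitive endoderm gene loci were taken as the NR5A2-bound regions whose nearest protein-coding gene is Gata4, Gata6, Sox7, Sox17, Foxa2, Pdgfra, Lrp2, Col4a1, Col4a2 or Lama1, with the gene span within 50 kb of the region's midpoint. This gave 13 of the 16958 regions of the deposited table (mm10 coordinates), at 6 of the 10 genes. Gata6 had 4 regions, Gata4, Pdgfra, Col4a1 and Lama1 had 2 each, and Col4a2 had 1. Sox7, Sox17, Foxa2 and Lrp2 had none.

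NR5A2 belongs to the orphan nuclear receptors and acts as a DNA-binding transcription factor. The primitive endoderm is the layer of the late blastocyst that lines the cavity side of the inner cell mass and later forms the endoderm of the yolk sacs. FGF4 from neighbouring epiblast precursors, acting through FGF receptors and the adaptor GRB2, favours GATA6 over NANOG in its precursors, and SOX17, GATA4 and SOX7 follow. The cells carry the receptor tyrosine kinase PDGFRA and deposit a basement membrane of laminin and type IV collagen. The 8-cell stage precedes that choice, so the loci were measured before the lineage exists.

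Accessibility was read by ATAC-seq, a method that tags open DNA with a transposase, in mouse embryos at the 8-cell stage from 2 series. The maternal-zygotic (mz) series had 13 knockout embryos (mz_NrKO) and 8 heterozygous embryos (mz_NrHet), each its own library, taken at the 8-cell stage and all bearing the same date label. In the inducible series, early 2-cell embryos were taken 30 h post hCG and grown in culture for another 45 h. One pool (i_NrKO) was kept in 750 nM 4-hydroxytamoxifen during the first 24 h of culture, and the other pool (i_Nrpp) was not. The labels name neither the Cre driver nor the alleles, and do not say whether mz_NrHet embryos had maternal Nr5a2. Embryos given the drug but keeping the gene were not analysed here, so drug and deletion cannot be told apart.

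The table holds 1 merged value per group and region, in RPKM, and a CUT&RUN value for NR5A2 binding from an earlier study. Recovered whole reads over all regions were 109296 in mz_NrKO, 99826 in mz_NrHet, 190091 in i_NrKO and 285671 in i_Nrpp, and the 13 regions hold 121, 90, 159 and 265 of them. The table gives no values per embryo, so the variation among embryos is unknown for every difference reported here. Tests and intervals on reads compare merged libraries and cover counting error only. Accessibility in fewer cells and lower accessibility per cell cannot be told apart, and no cell type can be read from a table of bound regions.

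Each of the 13 midpoints lay at least 3.27 kb from either end of its gene. At Gata4 both regions lay inside the gene, 22.4 and 26.6 kb from its nearer end. At Gata6 the 4 regions formed a row on the lower-coordinate side, 12.03, 19.9, 27.7 and 32.6 kb outside the span. The Pdgfra regions lay 16.0 and 25.2 kb and the Lama1 regions 10.6 and 15.9 kb outside, also on the lower-coordinate side. The closest to a start site was the accessible Col4a1 region, whose midpoint was 3.27 kb inside the gene from the Col4a1 start and 3.25 kb from that of Col4a2, which is transcribed in the opposite direction. The RefSeq table used gives gene spans without exons, so exon and intron could not be told.

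**Figure D1:**
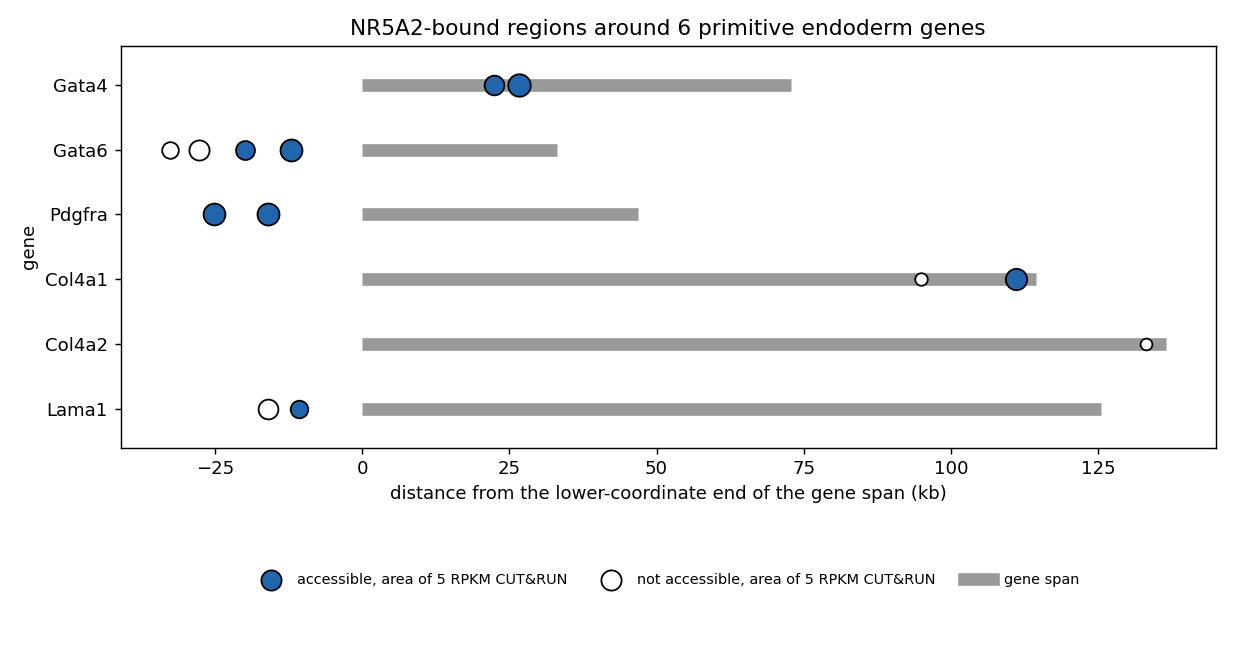
Position of the 13 NR5A2-bound regions (circles, area proportional to CUT&RUN RPKM) around 6 gene spans (grey bars), as distance in kb from the lower-coordinate end of each span. Filled circles are regions that the authors class as accessible; the Gata6, Pdgfra and Lama1 regions all lie outside the gene, and those of Gata4, Col4a1 and Col4a2 inside it.

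Promoter windows of 300 bases (RefSeq, GRCm38.p6) were at hand for 5 of the 10 genes: Pdgfra, Col4a1, Col4a2, Lrp2 and Foxa2, the last with 3 windows. None of the 7 windows overlapped a listed region. None held the letters CAAGGNCA on either strand, a core of the NR5A2 recognition motif, which 6.71% of all 32851 promoter windows hold. That says only that these letters are not in these windows.

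The 13 regions were bound at weak to middling strength. Their CUT&RUN values ran from 1.70 to 6.20 RPKM with a median of 4.80 RPKM, against a median of 4.15 RPKM over all regions. The strongest of them, inside Gata4, stood at percentile 75.7 of the table, and the weakest, inside Col4a2, at percentile 7.04. The authors class 8 of the 13 regions (61.5%) as accessible, against 48.5% of the table. The 8 accessible regions had CUT&RUN values of 3.79 to 6.20 RPKM, and the 5 not accessible ones 1.70 to 4.98 RPKM, so the ranges overlapped. In 10 of the 13 regions (76.9%) the authors had moved the binding summit onto a motif, by up to 243 bases, against 89.3% of all regions. An unmoved summit does not tell whether a motif was absent or already at the summit.

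As a group, the 13 regions had no called change in mz_NrKO and 1 called loss in i_NrKO. A call is an adjusted p under 0.05 in a two-sided exact binomial test on reads, adjusted over the 16958 regions after Benjamini and Hochberg. In the mz series 0 of 13 regions were called lower, against 1.73% of the table, and 0 higher, against 0.0236%. In the inducible series 1 of 13 was called lower, against 6.37%, and 0 higher, against 0.0767%. Relative to the table's own median ratio, 0 of the 13 were called in either series, and the calls over the table were 8 lower and 18 higher in the mz series, against 293 and 4 without scaling, and 75 and 45 in the inducible series, against 1081 and 13. Before adjustment, 0 of the 13 had a p under 0.05 in the mz series, where 11.9% of the table was lower and 0.708% higher at that level. In the inducible series 6 were lower, against 19.7%, and 0 higher, against 0.879%. Of the 13 regions, 7 had 10 or more reads over both mz columns and all 13 had as many over both inducible columns.

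Without regard to the test, 6 of the 13 regions had a lower value in mz_NrKO than in mz_NrHet, 6 a higher one and 1 had no read in either. Over all regions 64.3% were lower. In the inducible series 10 of 13 were lower in i_NrKO than in i_Nrpp, against 74.4% of the table. Median log2 ratios were taken on the log2(RPKM + 1) scale, which understates changes of low regions. In the mz series the median of the 13 was 0.00, against −0.32 over all regions. That 0.00 is the value of the Gata6 region with no read in either mz column. Over the 7 regions with 10 or more reads over both mz columns the median was −0.34. Over the 8 accessible regions it was −0.30, against −0.49 over all accessible regions. In the inducible series the median of the 13 was −0.42, against −0.35. The summed RPKM of the 13 regions had a mz ratio of 0.821 (exact 95% interval 0.620 to 1.09), against 0.668 over all regions, and an inducible ratio of 0.626 (0.511 to 0.764), against 0.694. Both intervals hold the ratio of all regions.

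**Figure D2:**
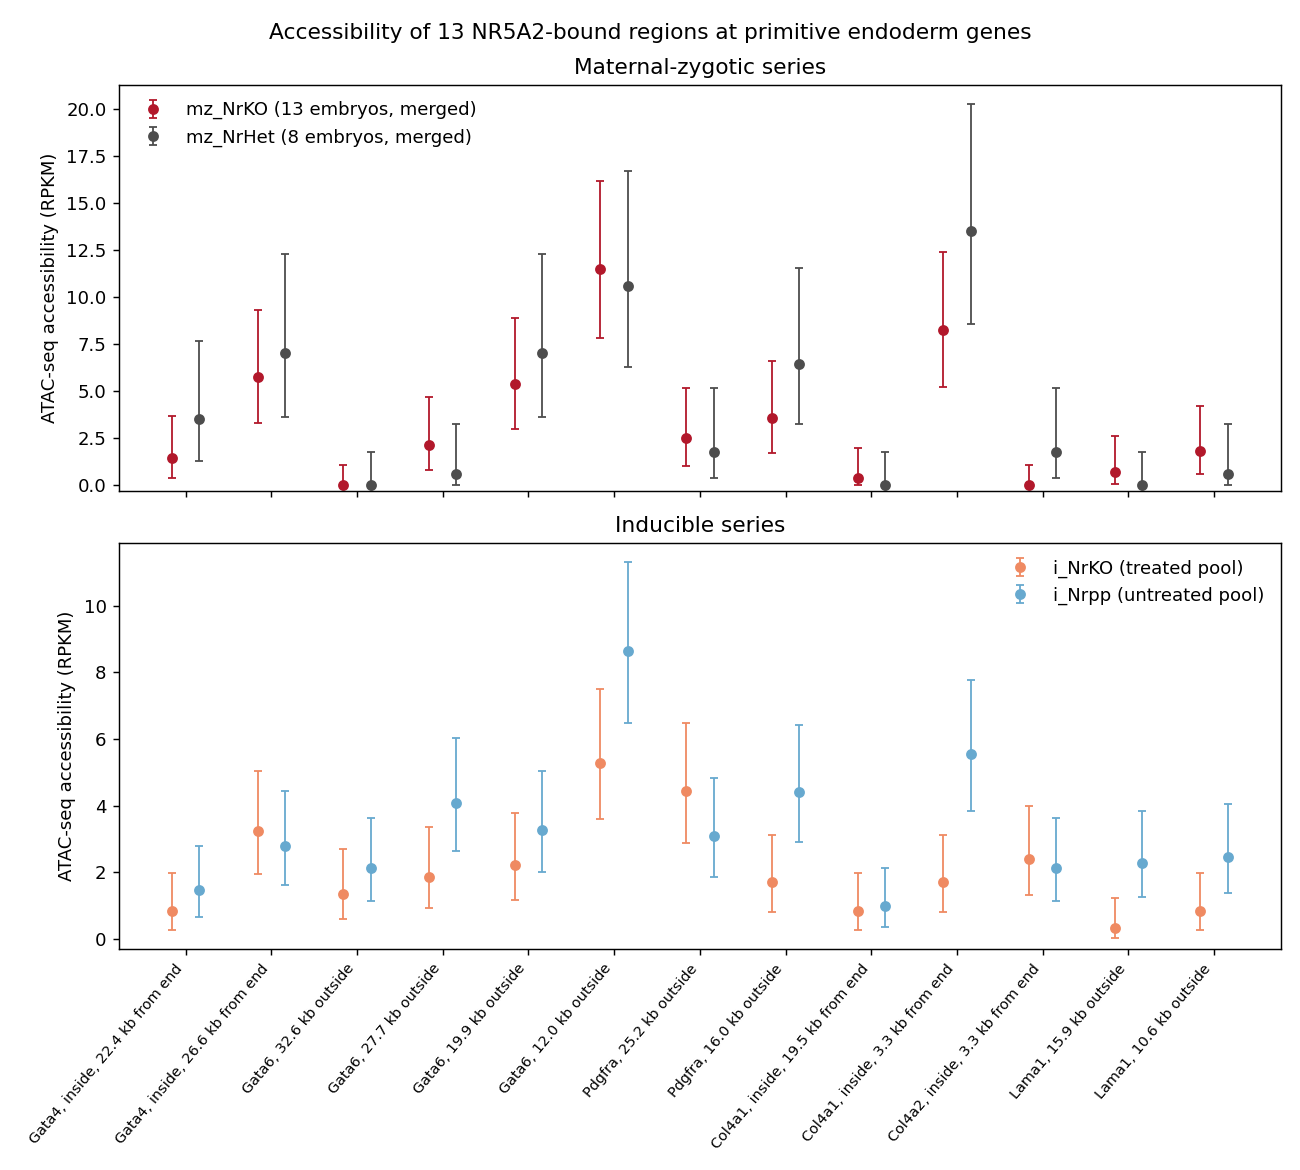
ATAC-seq RPKM of each of the 13 regions in mz_NrKO and mz_NrHet (top) and in i_NrKO and i_Nrpp (bottom). Points are the merged values and bars exact 95% Poisson intervals of the recovered reads, drawn up to the value of 3 reads where no read was counted; in the mz panel the bars of knockout and heterozygote overlap at every region, and the accessible Col4a1 region, at 1.70 RPKM in i_NrKO and 5.55 RPKM in i_Nrpp, is the widest gap in the inducible panel.

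The transcription factor genes Gata6 and Gata4 held 6 of the regions. Gata6 encodes the zinc finger factor that starts the primitive endoderm programme. Its region nearest to the gene (chromosome 18, 11040173 to 11040796, accessible) was the most open of all 13 in mz_NrKO and in both inducible pools. It had 11.5 RPKM (32 reads) in mz_NrKO, against 10.6 RPKM (18 reads) in mz_NrHet, a ratio of 1.09 (0.591 to 2.05). In the pools it had 5.28 RPKM (31 reads) in i_NrKO, against 8.65 RPKM (53 reads) in i_Nrpp, a ratio of 0.610 (0.378 to 0.968) that was not called (adjusted p = 0.181, exact binomial test). In i_Nrpp it ranked at percentile 98.9 of all regions. It was also the longest of the 13, at 624 bases against a median of 267. ATAC-seq values were not divided by the listed length, and how far length enters these ranks was not tested. The region's value was thus slightly higher in the mz knockout column and lower in the treated pool, and the exact test of inducible against mz ratio gave p = 0.15 before adjustment and 1 after it.

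The second accessible Gata6 region (11032397 to 11032917) was lower in both knockout columns without a call. It had 5.38 RPKM (15 reads) in mz_NrKO, against 7.05 RPKM (12 reads) in mz_NrHet, and 2.21 RPKM (13 reads) in i_NrKO, against 3.26 RPKM (20 reads) in i_Nrpp. Its ratios of 0.763 (0.333 to 1.79) and 0.678 (0.310 to 1.43) were close to those of the whole table. Farther out, the not accessible region at 11024671 to 11025040 had 2.15 RPKM (6 reads) in mz_NrKO, against 0.587 RPKM (1 read) in mz_NrHet, and 1.87 RPKM (11 reads) in i_NrKO, against 4.08 RPKM (25 reads) in i_Nrpp. That is a mz ratio of 3.66 with an interval of 0.444 to 168, and an inducible ratio of 0.459 with an interval of 0.204 to 0.967 (adjusted p = 0.185, exact binomial test). The region at 11019804 to 11020070 had no read in either mz column, which allows up to 1.08 RPKM in mz_NrKO and 1.76 RPKM in mz_NrHet, the value of 3 reads. In the pools it had 1.36 RPKM (8 reads) in i_NrKO and 2.12 RPKM (13 reads) in i_Nrpp.

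Summed over its 4 regions, Gata6 had 19.0 RPKM in mz_NrKO, against 18.2 RPKM in mz_NrHet, a ratio of 1.04 (0.658 to 1.68). In the inducible series the sum was 10.7 RPKM in i_NrKO, against 18.1 RPKM in i_Nrpp, a ratio of 0.592 (0.427 to 0.813). All 4 regions were lower in i_NrKO than in i_Nrpp, whereas in the mz series 2 were higher in the knockout column, 1 was lower and 1 had no read. The intervals of the summed ratios overlap, and their difference was not tested.

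The window of 50 kb decides on a strongly bound region near Gata6. The farthest region inside it lay 32.6 kb from the gene and had 3.38 RPKM CUT&RUN. The next Gata6 region lay 74.7 kb away (10977433 to 10978093, accessible) and was left out by the rule. It had 28.6 RPKM CUT&RUN, and 5.74 RPKM ATAC-seq (16 reads) in mz_NrKO, against 15.3 RPKM (26 reads) in mz_NrHet. The mz ratio was 0.376 (0.188 to 0.727), with p = 0.00212 before adjustment and 0.0830 after it (exact binomial test). The smallest mz p of the 13 before adjustment was 0.0545 (exact binomial test). In the pools it had 2.55 RPKM (15 reads) in i_NrKO, against 4.73 RPKM (29 reads) in i_Nrpp, a ratio of 0.539 (0.269 to 1.04). The summed Gata6 ratios above leave this region out and so depend on the window.

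Gata4 encodes a second GATA factor, which follows GATA6 in the lineage. Its more open region (chromosome 14, 63225429 to 63225669, accessible, the most strongly bound of the 13) had 5.74 RPKM (16 reads) in mz_NrKO, against 7.05 RPKM (12 reads) in mz_NrHet. In the pools it had 3.23 RPKM (19 reads) in i_NrKO, against 2.77 RPKM (17 reads) in i_Nrpp. The ratios of 0.814 (0.361 to 1.89) and 1.17 (0.573 to 2.39) both had intervals that include 1. The other region (63221138 to 63221437, accessible) had 1.43 RPKM (4 reads) in mz_NrKO, against 3.52 RPKM (6 reads) in mz_NrHet, and 0.851 RPKM (5 reads) in i_NrKO, against 1.47 RPKM (9 reads) in i_Nrpp. Its ratios were 0.407 (0.0845 to 1.72) and 0.579 (0.152 to 1.92), not called in either series. A further 4 listed regions lay within 50 kb of Gata4 but nearer to, or inside, another gene and were not counted. Likewise 6 listed regions lay within 50 kb of Col4a2, of which 1 was counted for it, and 3 lay within 50 kb of Pdgfra, of which 2 were.

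Sox7, Sox17 and Foxa2 encode factors of extraembryonic endoderm, FOXA2 in the visceral endoderm that arises after implantation. The listed region nearest to Sox17 lay 163 kb away, that nearest to Sox7 313 kb away and that nearest to Foxa2 616 kb away. Each of these had another gene as its nearest. The table lists bound regions, so accessibility at these 3 genes was not measured here.

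Pdgfra, the receptor gene, had 1 region lower in both knockout columns and 1 higher in both. PDGFRA, a receptor for platelet-derived growth factor, marks the lineage in the blastocyst. The region 16.0 kb outside the gene (chromosome 5, 75135255 to 75135471, accessible) had 3.59 RPKM (10 reads) in mz_NrKO, against 6.46 RPKM (11 reads) in mz_NrHet, and 1.70 RPKM (10 reads) in i_NrKO, against 4.41 RPKM (27 reads) in i_Nrpp. Its ratios were 0.555 (0.211 to 1.44) and 0.386 (0.167 to 0.823, adjusted p = 0.0853, exact binomial test), lower in both series without a call. The region 25.2 kb outside (75126010 to 75126271, accessible) had 2.51 RPKM (7 reads) in mz_NrKO, against 1.76 RPKM (3 reads) in mz_NrHet, and 4.42 RPKM (26 reads) in i_NrKO, against 3.10 RPKM (19 reads) in i_Nrpp. It was the only 1 of the 13 with a higher value in both knockout columns, at ratios of 1.42 (0.325 to 8.54) and 1.43 (0.760 to 2.73), and it passed no test. The CUT&RUN values of the pair were alike, at 5.92 and 5.84 RPKM. Lrp2, which encodes the endocytic receptor megalin, had its nearest listed region 116 kb away.

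The basement membrane genes held the call. Col4a1 and Col4a2 each encode a chain of type IV collagen and lie head to head on chromosome 8. The accessible region inside Col4a1 (11309404 to 11309714) fell in the treated pool, with 1.70 RPKM (10 reads) in i_NrKO, against 5.55 RPKM (34 reads) in i_Nrpp. The ratio was 0.307 (0.135 to 0.635, adjusted p = 0.0158, exact binomial test), with 1 pool per arm and no replicate check. It had 8.25 RPKM (23 reads) in mz_NrKO, against 13.5 RPKM (23 reads) in mz_NrHet, the highest mz_NrHet value of the 13, and a ratio of 0.611 with an interval of 0.327 to 1.14 (adjusted p = 0.499, exact binomial test). With the pools scaled so that the table had a median log2 ratio of 0, the adjusted p was 0.325 (exact binomial test). With a summed ratio of 1 it was 0.286 (exact binomial test). The lower value was thus not called relative to the shift of the whole table. The table holds bound regions only, so what that shift reflects was not tested.

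The other collagen regions held few reads in the mz columns. The second Col4a1 region (11293300 to 11293479, not accessible) had 0.359 RPKM (1 read) in mz_NrKO and none in mz_NrHet, and 0.851 RPKM (5 reads) in i_NrKO, against 0.979 RPKM (6 reads) in i_Nrpp. The Col4a2 region (11445933 to 11446096, not accessible, the most weakly bound of the 13) had no read in mz_NrKO and 1.76 RPKM (3 reads) in mz_NrHet, both at or under the 3 reads that a count of 0 allows, so no ratio is given. In the pools it had 2.38 RPKM (14 reads) in i_NrKO, against 2.12 RPKM (13 reads) in i_Nrpp, a ratio of 1.12 (0.489 to 2.59).

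Lama1 encodes a laminin alpha chain of the same membrane, and both of its regions were lower in the treated pool without a call. The region 10.6 kb outside the gene (chromosome 17, 67686353 to 67686609, accessible) had 1.79 RPKM (5 reads) in mz_NrKO, against 0.587 RPKM (1 read) in mz_NrHet, and 0.851 RPKM (5 reads) in i_NrKO, against 2.45 RPKM (15 reads) in i_Nrpp. The region 15.9 kb outside (67681020 to 67681381, not accessible) had 0.717 RPKM (2 reads) in mz_NrKO and none in mz_NrHet, and 0.340 RPKM (2 reads) in i_NrKO, against 2.29 RPKM (14 reads) in i_Nrpp. The inducible ratios were 0.348 (0.0988 to 1.01, adjusted p = 0.218, exact binomial test) and, from 2 against 14 reads, 0.149 (0.0164 to 0.648, adjusted p = 0.0584, exact binomial test). Summed, Lama1 had an inducible ratio of 0.252 (0.0931 to 0.587) from 7 reads in i_NrKO and 29 in i_Nrpp. In the mz columns the sums were 7 reads in mz_NrKO and 1 in mz_NrHet, a ratio of 4.27 whose interval runs from 0.549 to 193.

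**Figure D3:**
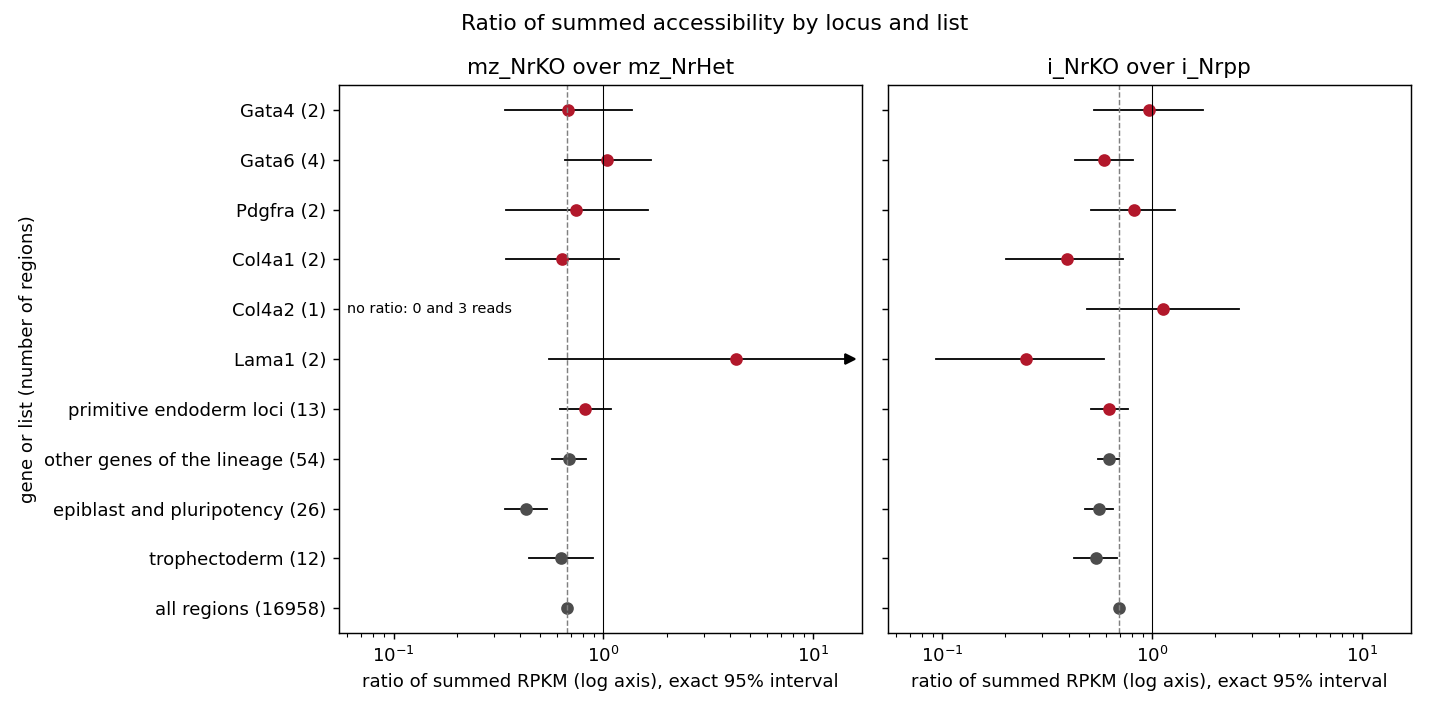
Ratio of summed RPKM per gene and per list, knockout over control, with exact 95% intervals (log axis), for the mz series (left) and the inducible series (right). The dashed line marks all 16958 regions, at 0.668 and 0.694; the arrow at Lama1 marks an interval that leaves the axis, and for Col4a2 no mz ratio is drawn.

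Between the series, the 13 regions gave no called difference. The exact test of the difference between a region's inducible and mz ratios called 0 of 13, against 0.0177% of the table, and 0 of 13 had an unadjusted p under 0.05, against 4.41% of the table, the smallest being 0.0590 at the Col4a2 region. By value, 4 of the 13 regions were lower in both knockouts, against 50.5% of the table: the accessible Col4a1 region, the nearer Pdgfra region, the second accessible Gata6 region and the less open Gata4 region, all 4 classed as accessible. A further 5 were higher in mz_NrKO and lower in i_NrKO, against 21.8% of the table. They were 2 Gata6 regions, both Lama1 regions and the not accessible Col4a1 region, and in 4 of the 5 the mz_NrHet column held 0 or 1 read.

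**Figure D4:**
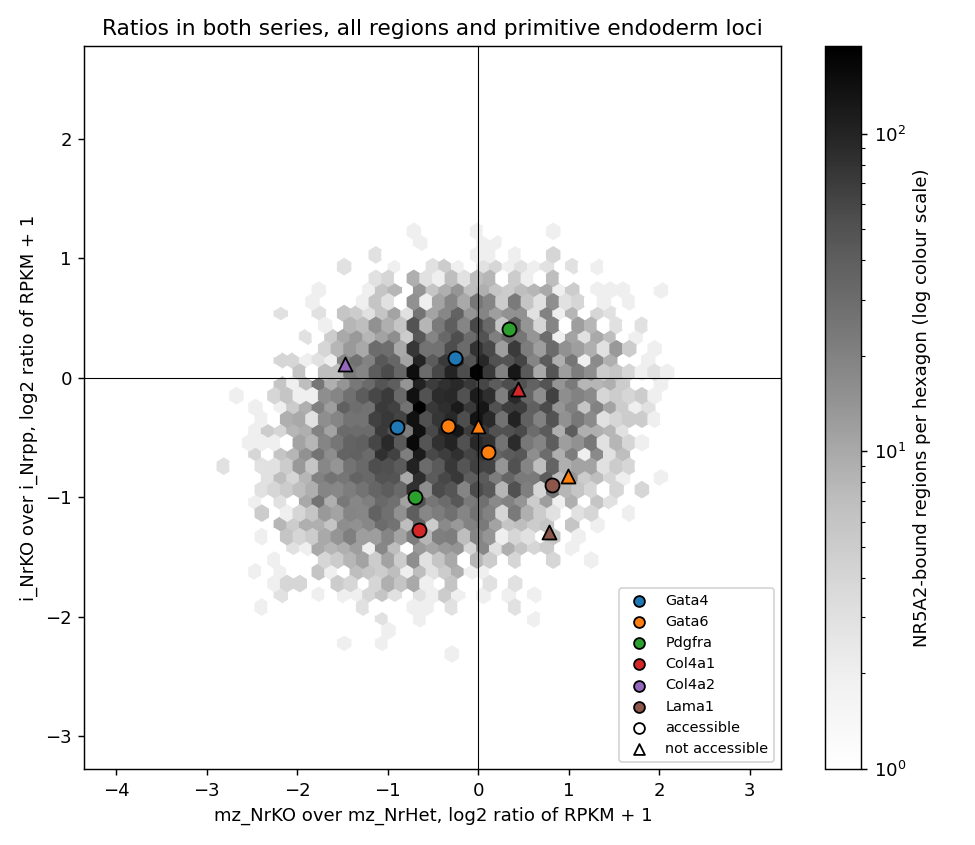
Log2 ratio of RPKM + 1 in the mz series (mz_NrKO over mz_NrHet, horizontal) and in the inducible series (i_NrKO over i_Nrpp, vertical) for all 16958 regions (grey hexagons) and the 13 regions at primitive endoderm genes (coloured by gene; circles accessible, triangles not accessible). Of the 13 symbols 10 lie below 0 on the vertical axis, and 6 lie left of 0 and 6 right of 0 on the horizontal axis.

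The authors' own classes of change gave 4 of the 13 regions as Down, 5 as Unchanged and 4 as Up, against 41.5%, 41.6% and 16.9% of the table, as the authors' deposited table has them. The class of every region of the table followed from the arithmetic mean of its deposited mz and inducible ratios, with Up above 1.5 and Down under 0.667. The 4 Up regions were both Lama1 regions, the not accessible Col4a1 region and the Gata6 region at 27.7 kb. All 4 had 0 or 1 read in mz_NrHet and all 4 had a lower value in i_NrKO than in i_Nrpp. At the Lama1 region 15.9 kb from the gene, the authors' deposited table has a mz ratio of 72.7 and an inducible ratio of 0.153, and their mean of 36.4 makes it Up. With the geometric mean of both ratios 2 of the 4 stayed Up, and with 1 RPKM added before the ratios none did. The 4 Down regions kept their class under both. They were the accessible Col4a1 region, the Col4a2 region, the nearer Pdgfra region and the less open Gata4 region. The Col4a2 region too was Down through few mz reads, 0 in mz_NrKO and 3 in mz_NrHet. In the authors' deposited table it has a mz ratio of 0.00564 and an inducible ratio of 1.12. Among all regions, 2296 of the 2873 Up regions (79.9%) had 0 or 1 read in mz_NrHet, against 26.4% of all regions.

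Other genes tied to the lineage were read from a list of 36, of which 20 had regions, 54 in all. The list is not limited to genes of primitive endoderm cells. It includes Fgf4, expressed by epiblast precursors, and signalling genes such as Grb2 and Sos1. In the mz series 0 of the 54 regions were called lower, against 1.73% of the table, and 0 higher. At an unadjusted p under 0.05, 6 were lower, against 11.9% of the table, and 1 was higher, against 0.708%. In the inducible series 5 of the 54 were called lower, against 6.37% of the table, and 0 higher, so the calls came at a rate near that of all regions. Of the 5, 4 lay near or inside signalling genes, which held 20 of the 54 regions, and 1 inside a basement membrane gene, a role with 15. Etv5, which encodes a transcription factor, was listed under signalling.

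Among the signalling genes, Sos1 encodes the exchange factor that links GRB2 to RAS. Its region 21.0 kb outside the gene (chromosome 17, 80501301 to 80501636) had 0.510 RPKM (3 reads) in i_NrKO, against 4.41 RPKM (27 reads) in i_Nrpp, or 0.116 times as much (adjusted p = 0.00132, exact binomial test). A second region inside Sos1 (80477409 to 80477695) had 2.04 RPKM in i_NrKO, against 5.71 RPKM in i_Nrpp (adjusted p = 0.0280, exact binomial test). In the mz series it went the other way, with 2.51 RPKM (7 reads) in mz_NrKO and none in mz_NrHet (p = 0.0496 before adjustment and 0.391 after it, exact binomial test), and the authors class it as Up. The exact test of the difference between its inducible and mz ratios gave p = 0.00262 before adjustment and 0.887 after it. Near Etv5, an ETS factor gene induced by FGF signalling, a region (chromosome 16, 22366959 to 22367279) had 1.02 RPKM in i_NrKO, against 4.41 RPKM in i_Nrpp (adjusted p = 0.0136, exact binomial test). Inside Grb2 a region (chromosome 11, 115688207 to 115688491) had 1.70 RPKM in i_NrKO, against 4.90 RPKM in i_Nrpp (adjusted p = 0.0424, exact binomial test). After adjustment none of these regions passed the mz test. The outer Sos1 region had 1.08 RPKM in mz_NrKO and 1.76 RPKM in mz_NrHet, the Etv5 region 0.717 and 1.17 RPKM, and the Grb2 region 3.95 and 3.52 RPKM.

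The called basement membrane region lay inside Nid1, which encodes the linker protein nidogen (chromosome 13, 13477057 to 13477362). It had 1.70 RPKM (10 reads) in i_NrKO, against 5.88 RPKM (36 reads) in i_Nrpp, or 0.290 times as much (adjusted p = 0.00931, exact binomial test), and 2.87 RPKM in mz_NrKO, against 2.94 RPKM in mz_NrHet. None of the 5 calls passed after either scaling of the columns. By role, the inducible ratio of summed RPKM was 0.496 (0.415 to 0.592) over 20 signalling regions and 0.552 (0.417 to 0.725) over 15 basement membrane regions. It was 0.832 (0.681 to 1.02) over 14 regions of the other transcription factor genes, of which Sall4 held more than any other gene. Etv5, though it encodes a transcription factor, is counted under signalling here. The ratios by role depend on that choice and were not computed with Etv5 moved. The mz ratios stood in another order, at 0.684 (0.511 to 0.918) for signalling, 0.952 (0.607 to 1.51) for basement membrane and 0.618 (0.446 to 0.857) for transcription factors, with overlapping intervals. No difference between roles was tested. The 54 regions together had a mz ratio of 0.686 (0.569 to 0.827) and an inducible ratio of 0.620 (0.553 to 0.694).

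Where a role had no call, the region with the highest mean RPKM over the 4 columns is given. A region inside Hnf4a, a nuclear receptor gene of visceral endoderm, had 6.81 RPKM in mz_NrKO, against 3.52 RPKM in mz_NrHet, and 2.72 RPKM in i_NrKO, against 4.90 RPKM in i_Nrpp. A region near Cubn, whose product cubilin works with megalin in uptake, had 2.87 RPKM in mz_NrKO, against 5.29 RPKM in mz_NrHet, and 2.89 RPKM in i_NrKO, against 2.77 RPKM in i_Nrpp. A region inside Srgn, a proteoglycan gene, had 0.359 RPKM in mz_NrKO, against 1.76 RPKM in mz_NrHet, and 1.36 RPKM in i_NrKO, against 0.979 RPKM in i_Nrpp. None of the 3 regions passed a test after adjustment; at Hnf4a the difference between the series had p = 0.0270 before adjustment (exact test).

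Marker lists of the other lineages of the blastocyst give the scale. The mz ratio over the 26 regions of 8 epiblast and pluripotency genes was 0.428 (0.339 to 0.540) with a median log2 ratio of −1.02, and 1 was called lower, against 1.73% of the table. The 12 regions near 4 of 8 trophectoderm genes had a mz ratio of 0.629 (0.443 to 0.893), a median of −0.51 and 1 called lower. The primitive endoderm loci, at 0.821 (0.620 to 1.09) with 0 called, had the highest mz ratio of these 3 lists. Their median of 0.00 was that of a region without mz reads. It was −0.34 over the 7 regions with 10 or more reads over both mz columns. Their interval does not overlap that of the epiblast list and does overlap that of the trophectoderm list, and the difference between lists was not tested. The separation from the epiblast list did not hold without Gata6, and neither it nor the highest rank held within 10 kb. Without Gata6 the mz ratio was 0.704 (0.489 to 1.01), and over the 5 regions within 10 kb, which include none of Gata6, it was 0.611 (0.393 to 0.949). Both of these intervals overlap that of the epiblast list, and 0.611 is below the trophectoderm ratio, while 0.704 is above it. Over the 14 regions within 100 kb the ratio was 0.721 (0.559 to 0.931), above both other lists as taken within 50 kb. That interval does not overlap that of the epiblast list. The inducible ratios were 0.626 (0.511 to 0.764) for primitive endoderm loci, 0.560 (0.480 to 0.651) for epiblast and 0.538 (0.425 to 0.677) for trophectoderm, with overlapping intervals. Called lower in the inducible series were 1 of 13, 3 of 26 and 2 of 12 regions of these lists, in the same order, against 6.37% of the table. The mz ratios rested on 121 reads in mz_NrKO and 90 in mz_NrHet for primitive endoderm loci, on 127 and 181 for epiblast, and on 69 and 67 for trophectoderm. The 6 regions of cumulus and granulosa cell genes, cells that surround the oocyte, lay near 2 of 7 genes and had ratios of 0.785 (0.568 to 1.09) and 0.899 (0.707 to 1.14), with 0 called.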

How the data were processed

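The members and gene lists were chosen with earlier results of these data known. Per the submitters' processing notes, cutadapt, Bowtie2, MACS2 and the mm10 build were used; versions and settings are not given in the sources used here. The single deposited table gives RPKM per group, as the authors merged the libraries. In each ATAC-seq column 100% of values were whole multiples of 1 step within 0.0001 of it, whatever the region's length. The steps were 0.359 RPKM per read for mz_NrKO, 0.587 for mz_NrHet, 0.170 for i_NrKO and 0.163 for i_Nrpp. ATAC-seq values were thus not divided by the listed length, while CUT&RUN values were. The authors' shift of insertions and handling of PCR duplicates, which are not independent molecules, are not stated. The authors' deposited ratio is knockout over control with 0.01 RPKM added to each.

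Reads were recovered by division. RPKM values are normally tested on a log scale across replicates. With 1 merged column per group, the reads of each pair of columns were compared by an exact binomial test. The test was tried on simulated independent Poisson reads without a shift between the columns. That cannot check it against spread among embryos, PCR duplicates or the shift of the whole table. Ratios have exact Clopper-Pearson intervals conditional on the total. The difference between series used Fisher's noncentral hypergeometric distribution. Genes came from RefSeq (GRCm38.p6, the assembly of mm10), by gene span. Every member region is given; of the other lineage genes, those called and, for roles with no call, the region with the highest mean of the 4 columns. Analyses used Python 3.11.15, SciPy 1.17.1 and pandas 2.3.3. No genome sequence was used.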

Additional observations from a re-analysis of the deposited data

How the results depend on the processing

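No paired analysis was possible because the columns hold merged groups with no replicate numbers, and for the same reason no embryo could be left out. With the columns scaled to a median log2 ratio of 0 over all regions (factors of 1.64 for mz_NrKO and 1.47 for i_NrKO), the ratio of summed RPKM of the 13 regions was 1.34 for the mz pair and 0.921 for the inducible pair, and 0 regions were called lower in i_NrKO. With the summed ratio of all regions set to 1, these ratios were 1.23 and 0.902, again with 0 called lower. Over the whole table scaling the sums gave 14 lower and 13 higher calls in the mz series and 78 lower and 37 higher in the inducible series. The 5 regions within 10 kb of a gene had a mz ratio of 0.611, below the trophectoderm list. By the geometric mean of both ratios, an alternative chosen after the data were seen, 2 regions would be classed Up, and with 1 RPKM added 0. The other alternatives run were 100 kb, accessible regions only, a minimum of 10 reads, other pseudocounts, and each gene left out. Under these, counts kept their call, and ratios and medians stayed within the 95% interval of the value. For medians this is the binomial interval over regions, not over embryos. For the mz median it ran from −0.70 to 0.78, so staying within it says little. That median was −0.34 with a minimum of 10 reads and 0.11 without Gata4. In the mz series the median member region held 6 reads in mz_NrKO and 3 in mz_NrHet, and 0 of the 7 regions with 10 or more reads over both columns were called; how far depth limits the calls was not tested.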
